A study of Mus musculus with 21 samples.

Results

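The genes described here are 38 listed members of the antiviral program that type I interferon induces. They were followed across muscle of mice whose genotype does or does not let a toxin deplete regulatory T cells. They were chosen by name, and each was read from a probe set with a single gene symbol. Of the 38, 36 had such a probe set, 1 each, out of 19752 genes in the table, and all 36 passed the filter on low values. Isg15, the ubiquitin-like modifier, and Ifi44 had none and were not analysed here.

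All samples were whole tibialis anterior, a muscle of the lower leg, from male C57BL/6 mice aged 8 weeks. The mice were Foxp3-DTR+, in which the diphtheria toxin receptor is placed under control of Foxp3 so that toxin kills Foxp3-expressing regulatory T cells, or Foxp3-DTR-. By the labels cardiotoxin, a snake venom toxin that destroys muscle fibres, was given in this muscle at day 0. Mice of both genotypes received diphtheria toxin every other day until dissection at day 4 or 8. By title a muscle is CTx or xINJ. Other labels call both cardiotoxin-injured, so xINJ stands here for no more than that title word. DTR- mice gave 3 samples each for xINJ at day 4, CTx at day 4, xINJ at day 8 and CTx at day 8. DTR+ mice gave 2 samples for CTx at day 4, 3 for CTx at day 8 and 2 for xINJ at day 8, with single samples for xINJ at day 4 and for day 0, which the labels call control. The labels do not say that samples of a group were separate animals, so p-values measure the spread between samples, which may be technical. For DTR- xINJ day 4 replicate 1 the time tag reads 8d, against day 4 in the title and the preparation text, and the sample was kept at day 4.

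Type I interferons, the alpha and beta interferons, bind a receptor made of Ifnar1 and Ifnar2 and act through the kinases Jak1 and Tyk2 and a transcription factor complex that holds Stat2 and Irf9. That complex binds the interferon-stimulated response element, a short promoter motif, and turns on genes whose products block viral RNA, proteins and budding. Interferon gamma signals through another receptor and induces many of these genes as well, more weakly for most of them, together with its own preferred targets such as guanylate-binding proteins. In muscle the program is best known from inflammatory disease of the tissue, where fibres and infiltrating cells both express it.

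The promoters of 5 members are printed because each holds the core of that element, and 3 of their genes were called for genotype in xINJ muscle while the other two were not. Each sequence is the 160 bases before the start of transcription in RefSeq on GRCm38.p6, 5′ to 3′ on the strand of the gene. Capitals mark each match to GAAA, 2 bases of any kind and GAAA again, searched on both strands, so that a match on the other strand begins and ends with TTTC. Overlapping matches were allowed.
Ifit3 (chr19:34583369-34583528, plus strand): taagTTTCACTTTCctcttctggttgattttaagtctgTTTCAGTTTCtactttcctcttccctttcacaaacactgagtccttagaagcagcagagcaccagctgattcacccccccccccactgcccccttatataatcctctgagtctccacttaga
Ifit1 (chr19:34640729-34640888, plus strand): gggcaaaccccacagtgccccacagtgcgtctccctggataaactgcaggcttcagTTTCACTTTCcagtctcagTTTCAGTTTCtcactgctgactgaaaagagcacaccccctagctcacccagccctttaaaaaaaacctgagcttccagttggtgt
Rsad2 (chr12:26456453-26456612, minus strand): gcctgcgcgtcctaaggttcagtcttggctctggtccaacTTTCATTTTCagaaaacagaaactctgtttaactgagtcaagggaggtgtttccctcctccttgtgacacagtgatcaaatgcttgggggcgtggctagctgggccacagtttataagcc
Oas3 (chr5:120777660-120777819, minus strand): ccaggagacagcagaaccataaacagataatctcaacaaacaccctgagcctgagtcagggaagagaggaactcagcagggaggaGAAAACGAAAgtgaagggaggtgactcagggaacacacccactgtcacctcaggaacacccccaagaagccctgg
Ddx60 (chr8:61927927-61928086, plus strand): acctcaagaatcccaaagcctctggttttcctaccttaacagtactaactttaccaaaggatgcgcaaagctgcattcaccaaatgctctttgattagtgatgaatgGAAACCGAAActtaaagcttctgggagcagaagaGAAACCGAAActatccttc
Ifit3, Ifit1 and Rsad2 were higher in DTR+ xINJ muscle, and Oas3 and Ddx60 were not called there, Ddx60 lying below the level used as a filter on all 5 of those arrays. The genes were not tested against each other. In Ifit3 the matches began 156 and 122 bases before the start, and in Ifit1 they began 104 and 85 bases before it. The match of Rsad2 began 120 bases before the start and that of Oas3 began 75 bases before it. Ddx60 held its matches 53 and 19 bases before the start. Over windows of 300 bases, from 250 before to 50 after the start, RefSeq promoters were at hand for 25 of the 36 measured members. A match was found for 10 of the 25 members (40%), namely Ifit1, Ifit3, Oas1a, Oas3, Rsad2, Bst2, Trim30a, Ddx60, Ifih1 and Eif2ak2. Among all genes with a promoter of that length 3.99% had a match. Counted by promoter, 11 of 28 held one among the members, against 3.44% of all 32851. Matches occurred on both sides of the genotype call in xINJ muscle. Of the 16 members called in DTR+ xINJ muscle 11 had a promoter and 4 of these a match, and of the 20 not called 14 had a promoter and 6 a match. A match is only a string of letters and was not tested for binding.

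The arrays gave a median intensity of 133.05 to 159.53, and their number limits the precision. Levels are log2 of the authors' normalized intensity, and a level of one gene was not set against that of another. Comparisons came from 1 limma fit over 13278 genes and all 21 samples, with Benjamini-Hochberg adjustment within each comparison. A member is called where its adjusted p was under 0.05. Mx1 and Mx2 were below the filter level, defined below, on every xINJ and every CTx day 8 array. Dhx58 and Ddx60 were below it on every DTR- xINJ and both DTR+ xINJ day 8 arrays. Fitted values between such groups compare background with background and give no size of a change. Muscle fibre markers such as Ckm and Acta1 had a mean of 13.48 or above in all xINJ samples and in the day 0 sample. In CTx day 4 samples that mean was 12.23 to 13.15. Macrophage markers had means of 7.13 to 8.49 in xINJ samples, 7.67 in the day 0 sample and 9.06 to 11.01 in CTx samples. Whether xINJ muscle was injured was not tested. Of the 5 regulatory T cell markers in the table, 3 or 4 were below the level used as a filter on every array of each group, so depletion could not be read from this whole tissue.

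**Figure D1:**
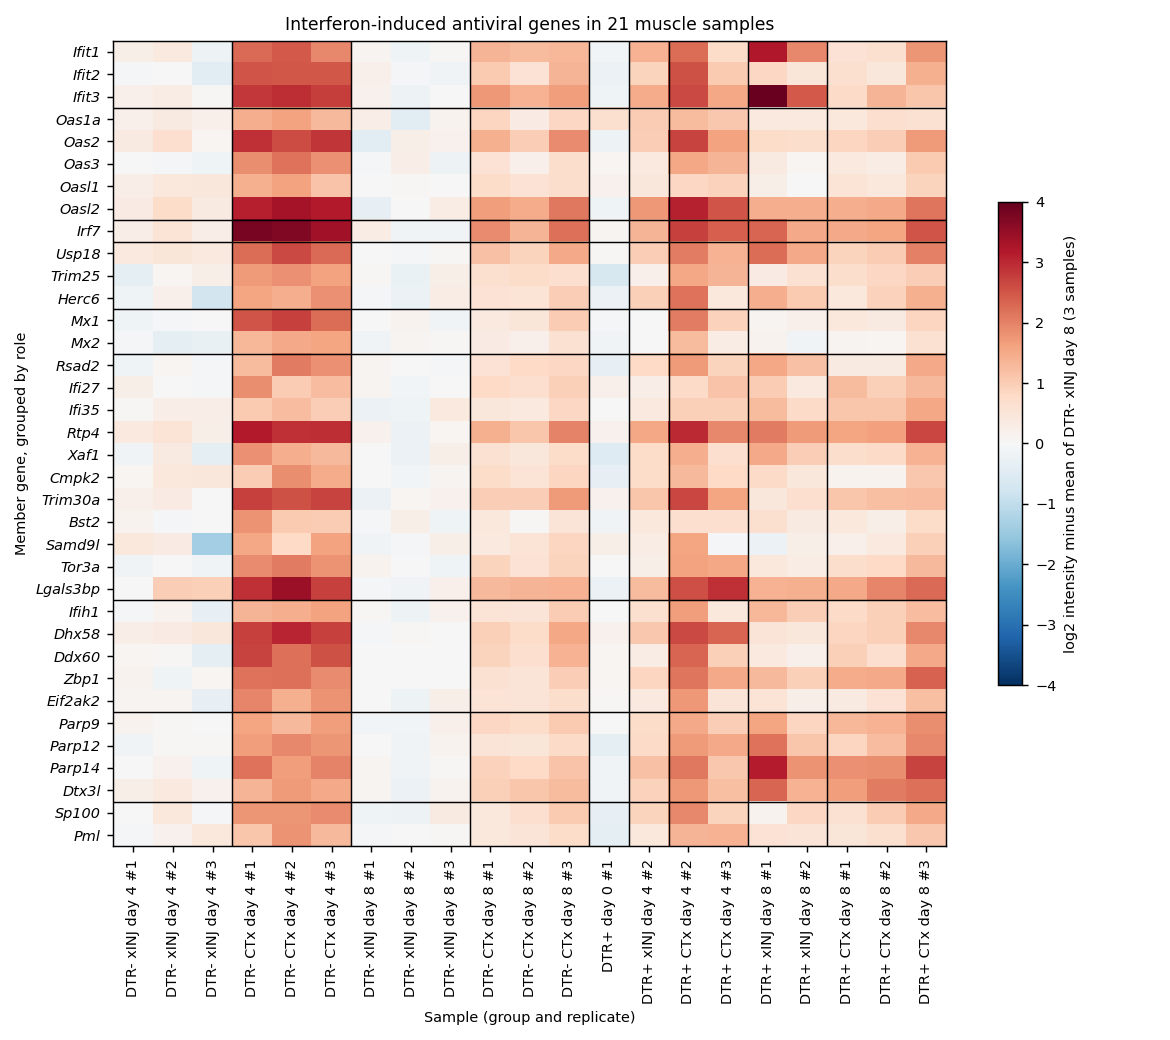
Log2 intensity of the 36 measured members in all 21 samples, each gene relative to its mean over the 3 DTR- xINJ day 8 samples. Rows are grouped by role and columns by group. Red is higher and blue lower, on a scale from -4 to 4. The 3 DTR- CTx day 4 columns are red throughout, and in the DTR+ xINJ day 8 columns Ifit1, Ifit3 and Parp14 are deep red while Mx1, Mx2 and Oas3 are pale.

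At day 4 all 36 members were higher in CTx than in xINJ muscle of DTR- mice. The median log2 fold change was 1.82, with a range of 0.89 for Ifi35 to 3.25 for Irf7. Over all genes tested 26.1% were called higher in this comparison and 20.5% lower. With arrays centred on their medians those shares were 22.4% and 30.1%, with quantile normalization 23.0% and 27.7%, and all 36 members were called higher under both. The largest adjusted p of a member was 0.00471 (limma), for Samd9l.

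Irf7, the transcription factor that amplifies interferon alpha production, was at 7.31, 7.58 and 7.31 in DTR- xINJ muscle and at 10.82, 10.74 and 10.38 in DTR- CTx muscle. The groups lay far apart, with a log2 fold change of 3.25 ± 0.26 (SE, n = 3 against 3, limma adjusted p = 1.19e-08), or 9.5-fold. Ifit3, a partner of Ifit1 in a complex that holds foreign RNA, was at 7.77, 7.87 and 7.62 in xINJ and at 10.40, 10.51 and 10.32 in CTx muscle. Its log2 fold change was 2.65 ± 0.30 (SE), and those of Ifit2 and Ifit1, which binds RNA with an unmethylated cap, were 2.64 and 2.08. Ifit2 was below the filter level on 2 of the 3 xINJ arrays. Mouse Ifit3 has a near-identical neighbour, Ifit3b, and whether its transcripts add to the Ifit3 probe set was not tested.

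The oligoadenylate synthetases, which make the second messenger of the ribonuclease RNase L, and their relatives rose for 5 of 5. The largest change among them was that of Oasl2 at 2.73 and the smallest that of Oasl1, which limits translation of Irf7, at 1.01. Oas2 rose by 2.42 and Oas1a by 1.21. Oas3 lay below the filter level on every DTR- xINJ day 4 array and was at least 3.66-fold higher in CTx muscle. The filter level, log2 6.62 to 6.84, is the 40th percentile of an array, and an "at least" fold is the brighter mean over that level.

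Among the ISG15 system, Usp18, which removes ISG15 from proteins and dampens the receptor, rose by 1.96, the ligase Herc6 by 1.85 and Trim25 by 1.72. The Mx GTPases trap viral nucleocapsids, and C57BL/6, like most inbred strains, carries a defective Mx1. Its transcript was at 5.52, 5.59 and 5.66 in xINJ and at 8.19, 8.41 and 7.92 in CTx muscle, at least 2.79-fold higher. Mx2 passed the filter only through 2 DTR- CTx day 4 arrays, so its difference there was fixed by the filter. Its fitted log2 fold change was 1.73.

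Sensors of nucleic acids rose for 5 of 5. Dhx58 (LGP2) was at least 4.03-fold higher, Ddx60, an RNA helicase, at least 3.86-fold and Eif2ak2 (PKR), the kinase that stops translation, at least 2.72-fold. Zbp1, which senses Z-form nucleic acids and starts necroptosis, rose by 2.07, and Ifih1 (MDA5), a sensor of long double-stranded RNA, by 1.56. The ADP-ribosyltransferases Parp14, Parp12 and Parp9 rose by 1.93, 1.79 and 1.43, and Dtx3l, the ubiquitin ligase that pairs with Parp9, by 1.26. The nuclear body proteins Sp100 and Pml rose by 1.67 and 1.23.

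Of the remaining 11 members all rose. The largest changes were those of Rtp4, a chaperone of receptors, at 2.63, Trim30a, a regulator of innate signalling, at 2.50 and Lgals3bp, a secreted galectin-binding protein, at 2.38. Rsad2 (viperin), which makes a chain-terminating nucleotide, rose by 1.76, and Cmpk2, its genomic neighbour and a nucleotide kinase, by 1.14. Bst2 (tetherin), which holds budding virus on the cell, rose by 1.25. Tor3a rose by 2.00, Xaf1, which promotes cell death, by 1.57, and Samd9l, which restricts viral protein synthesis, by 1.53. Ifi27 rose by 1.31 and Ifi35 by 0.89.

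Macrophage markers moved with this comparison. Their mean level lay at 7.69 to 7.97 in DTR- xINJ and 10.54 to 11.01 in DTR- CTx day 4 muscle, and 11 of 11 were called higher, while 6 of 7 fibre markers were called lower. Called higher too were 4 of 5 plasmacytoid dendritic cell markers and 4 of 5 inflammatory monocyte markers. So were 2 of 3 neutrophil markers, 2 of 4 of NK and cytotoxic cells and 1 of 7 T cell markers. Of 6 endothelial markers 5 were called lower. For plasmacytoid dendritic cells 3 of 7 markers were below the filter level on every xINJ array and 2 on every CTx array. The part of these cells in the rise of the members was not tested. In whole muscle, a change in the number of cells of a type and a change of RNA per cell cannot be told apart.

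At day 8 in DTR- mice 23 of the 36 members were still called higher in CTx muscle, with 10.4% called higher and 3.17% lower among all genes. With arrays centred on their medians 18 members were called, with 7.95% and 5.72% of all genes, and with quantile normalization 21, with 9.46% and 6.13%. All 36 estimates were above 0, with a median log2 fold change of 0.73. Irf7 was again the largest at 1.81 ± 0.26 (SE), with 7.32, 6.89 and 6.89 in xINJ and 8.92, 8.40 and 9.23 in CTx muscle. Oasl2 rose by 1.75, Ifit3 by 1.60, Rtp4 by 1.51, Oas2 by 1.43, Lgals3bp by 1.35 and Ifit1 by 1.33. Usp18 rose by 1.18.

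Neither Mx gene was called, and both were below the filter level on all 6 arrays. Rsad2 at 0.74 missed the threshold (limma adjusted p = 0.0803). Oas3, Ifih1, Eif2ak2, Parp12, Sp100, Herc6, Xaf1, Cmpk2, Bst2 and Samd9l were the other members not called, with log2 fold changes between 0.33 and 0.72. The count fell to 14 without DTR- CTx day 8 replicate 3, which was above the mean of the other 2 samples for 35 members, and to 15 without DTR- xINJ day 8 replicate 2. Macrophage markers had means of 7.13 to 7.37 in xINJ and 9.06 to 9.13 in CTx muscle.

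From day 4 to day 8 the program fell in CTx muscle of DTR- mice. All 36 estimates were negative, with a median of -1.09, and 33 were called lower, against 18.0% called lower and 11.6% higher over all genes. Mx2, among the 33, passed the filter only through DTR- CTx day 4 arrays, so its fall was fixed by the filter. Mx1, below the filter level on all 3 day 8 arrays, was at least 2.71-fold lower, with a fitted value of -1.86 ± 0.23 (SE, limma adjusted p = 9.3e-06). Irf7 fell by 1.80, Dhx58 by 1.74, Lgals3bp by 1.67, Rtp4 by 1.52 and Ifit2 by 1.50. Ifit3 fell by 1.25, Oas2 by 1.36, Usp18 by 1.19 and Rsad2 by 0.98. The members not called were Ifit1 at -0.88, Samd9l at -0.72 and Dtx3l at -0.42. Macrophage markers were called lower for 11 of 11 over the same days, and their part was not tested.

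In xINJ muscle of DTR- mice 0 of 36 members were called between the days by limma, and the median was -0.07. An unadjusted p under 0.05 was found for 3 members and for 633 of all 13278 genes. Over all genes 0.00753% were called higher and 0.0603% lower. The 3 members of smallest p were Lgals3bp at -0.65, the lowest value of the 36, Oasl2 at -0.47 and Oasl1. The mean of Oasl1 was 7.53 at day 4 and 7.16 at day 8. Of Ifit1, Ifit3, Oas2, Irf7, Usp18 and Rsad2, Usp18 had the lowest value at -0.41.

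CTx muscle of DTR+ mice had high levels at day 4 as well, with samples that stood apart. The median level of the 36 members was 9.13 in replicate 2 and 8.43 in replicate 3, against 9.08 to 9.21 in the 3 DTR- CTx samples. Replicate 3 was the lower for 31 of 36 members, with Herc6 lower by 1.75 log2 units at the extreme. Over all genes its median difference from replicate 2 was 0.13, the other way.

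No member was called for genotype in CTx muscle at day 4 by limma, where 1 of all genes tested was called higher (0.00753%) and 0 lower. All 36 estimates were negative, with a median of -0.42, and 12 members had an unadjusted p under 0.05, as had 274 of all genes. Mx1 was at 7.73 and 6.61 in DTR+ muscle, and at 8.19, 8.41 and 7.92 in DTR- muscle. The value of 6.61 was below the filter level of its array, 6.75, which limits the measure of its difference. Both DTR+ samples were below every DTR- sample, with a log2 difference of -1.0 ± 0.26 (SE, limma adjusted p = 1). Irf7 was at 9.77 and 9.41 in DTR+ muscle, below all DTR- values, with a difference of -1.06 ± 0.29 (SE). Oasl1 was at -0.52, Ifit3 at -0.76, Ifit1 at -0.74, Usp18 at -0.67, Oas2 at -0.64 and Rsad2 at -0.42. Leaving out replicate 3 of DTR+ moved the median to -0.11, and leaving out replicate 2 moved it to -0.85 with 1 member called lower. In those fits the lone sample is assumed to vary like the other groups.

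At day 8 the comparison of genotypes in CTx muscle called 4 members higher and 0 lower, with 3.03% called higher and 0.655% lower over all genes. The median over the members was 0.12, and 24 estimates were positive. Zbp1 was at 8.82, 8.85 and 9.70 in DTR+ and at 7.96, 7.84 and 8.31 in DTR- muscle. The groups did not overlap, and the log2 fold change was 1.09 ± 0.21 (SE, n = 3 against 3, limma adjusted p = 0.00467). Parp14 rose by 1.17 ± 0.30 (SE, limma adjusted p = 0.0346), Dtx3l by 0.88 ± 0.21 and Ifi35 by 0.70 ± 0.19.

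None of the 10 IFIT, OAS and Mx members was among the called ones. Ifit3 was at 8.33, 8.93 and 8.68 in DTR+ and at 9.31, 8.94 and 9.23 in DTR- CTx muscle, so that every DTR+ value was below every DTR- value by a narrow margin, with a log2 difference of -0.51 (limma adjusted p = 0.516). Ifit1 was at -0.34, Oas2 at -0.25, Rsad2 at 0.02, Irf7 at 0.05 and Usp18 at 0.12, none of them called. Replicate 3 of DTR+ CTx day 8 was above the mean of the other 2 samples for all 36 members, by a median of 0.67, while the median over all genes was 0.16. Without it only Zbp1 was called, at 0.80 (limma adjusted p = 0.032). Only Zbp1 was called too without DTR- CTx day 8 replicate 1 or replicate 2, and Zbp1 and Parp14 were called without DTR+ CTx day 8 replicate 2.

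T cell markers moved with genotype in CTx muscle at day 8, with means of 6.31 to 6.57 in DTR- and 7.27 to 8.05 in DTR+ samples and 7 of 7 tested markers called higher. Macrophage markers had means of 9.06 to 9.13 and 9.86 to 9.92, and 5 of 11 were called higher. Called higher too were 4 of 5 inflammatory monocyte markers, 2 of 4 of NK and cytotoxic cells and 1 of 3 of neutrophils, and 2 of 6 endothelial markers were called lower. Their part in the members' values was not tested.

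Among the 3 genotype comparisons the one in xINJ muscle at day 8 called the most members. In DTR+ muscle 16 of 36 members were called higher and 0 lower, against 1.81% called higher and 0.806% lower over all genes. All 36 estimates were above 0, with a median log2 fold change of 0.71. Ifit3 was 9.19-fold higher, while Samd9l and Oasl1 had log2 fold changes of 0.01 and 0.10. Of the 20 members not called, Mx1, Mx2, Dhx58 and Ddx60 were below the filter level on all 5 arrays.

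Ifit3 was at 11.52 and 10.01 in DTR+ xINJ muscle and at 7.75, 7.35 and 7.59 in DTR- xINJ muscle. Both DTR+ samples were far above every DTR- sample and 1.51 log2 units from each other. The log2 fold change was 3.20 ± 0.33 (SE, n = 2 against 3, limma adjusted p = 1.28e-05). Ifit1 was at 10.27 and 9.0 in DTR+ and at 7.20, 6.90 and 7.14 in DTR- muscle, a change of 2.56 ± 0.40 (SE, limma adjusted p = 0.00103). Ifit2, the third member of that family, was at 7.51 and 7.18 in DTR+ and at 6.90, 6.63 and 6.54 in DTR- muscle. Its groups did not overlap either, but its change of 0.65 ± 0.34 was not called (limma adjusted p = 0.462). Ifit2 was below the filter level on 2 of the 3 DTR- arrays, which limits the measure of its change.

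Parp14, a mono-ADP-ribosyltransferase, was at 10.39 and 9.03 in DTR+ and at 7.36, 7.09 and 7.28 in DTR- muscle, a change of 2.46 ± 0.34 (SE, limma adjusted p = 0.000351). Every gene of its role was called, Dtx3l at 1.86, Parp12 at 1.64 and Parp9 at 1.22. Irf7 was at 9.37 and 8.56 against 7.32, 6.89 and 6.89, a change of 1.93 ± 0.29 (SE, limma adjusted p = 0.000888). Usp18 was at 9.58 and 8.89 against 7.35, 7.32 and 7.41, a change of 1.87 ± 0.29 (SE, limma adjusted p = 0.000924). In each of these genes the groups were apart and replicate 1 was the higher DTR+ sample.

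Of the OAS members only Oasl2 was called. It was at 8.99 in both DTR+ samples and at 7.22, 7.57 and 7.85 in DTR- muscle, a change of 1.44 ± 0.24 (SE, limma adjusted p = 0.00209). Oas2 was at 0.71, Oas1a at 0.39, Oas3 at 0.22 and Oasl1 at 0.10, none called. Mx1 was at 5.78 and 5.89 in DTR+ and at 5.70, 5.81 and 5.54 in DTR- muscle, below the filter level on all 5 arrays. The samples overlapped, and neither Mx1 nor Mx2 was called. At that level a change in either could not be measured.

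Among sensors Zbp1 rose by 1.12 and Ifih1 by 1.15, although Ifih1 was called in 0 of the 5 fits that left out 1 sample. Ifit3, Oasl2, Parp14 and Dtx3l were called in all 5, Zbp1, Xaf1, Ifi35 and Lgals3bp in 3 and Rsad2 in 2. Eif2ak2 at 0.39 was not called, nor were Dhx58 and Ddx60, which were below the filter level on all 5 arrays. Rtp4 rose by 1.90, Lgals3bp by 1.41, Rsad2 by 1.36, Xaf1 by 1.25 and Ifi35 by 1.03. Herc6, at 1.25 ± 0.38 (SE), was as large as Xaf1 and missed the threshold (limma adjusted p = 0.0994). Sp100 and Pml were at 0.48 and 0.56, not called.

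The number of called members rested on DTR+ xINJ day 8 replicate 1, which was the higher DTR+ sample for 30 of 36 members. Without it the count was 4, with Ifit3 at 2.45 (limma adjusted p = 0.000495), Parp14 at 1.78, Dtx3l at 1.40 and Oasl2 at 1.44, and the median was 0.74. Ifit1 was then at 1.92 (limma adjusted p = 0.0668) and Irf7 at 1.53 (0.054). Without replicate 2 the count was 13.

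Macrophage markers had means of 7.13 to 7.37 in DTR- and 7.83 to 8.12 in DTR+ xINJ day 8 muscle, and 5 of 11 were called higher. T cell markers lay at 6.12 to 6.26 and 6.50 to 6.55, with 0 of 7 called. Plasmacytoid dendritic cell markers, of the cell type that makes most interferon alpha, lay at 6.96 to 7.10 and 6.90 to 7.02, with 0 of 5 called. Of the 8 T cell markers in the table, 6 were below the filter level on every DTR- array and 2 on every DTR+ array. For plasmacytoid dendritic cells these were 3 and 4 of 7, and such markers give little measure of a change. Called higher were 1 of 5 inflammatory monocyte markers and 1 of 4 of NK and cytotoxic cells. The part of these cells in the members' rise was not tested.

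**Figure D2:**
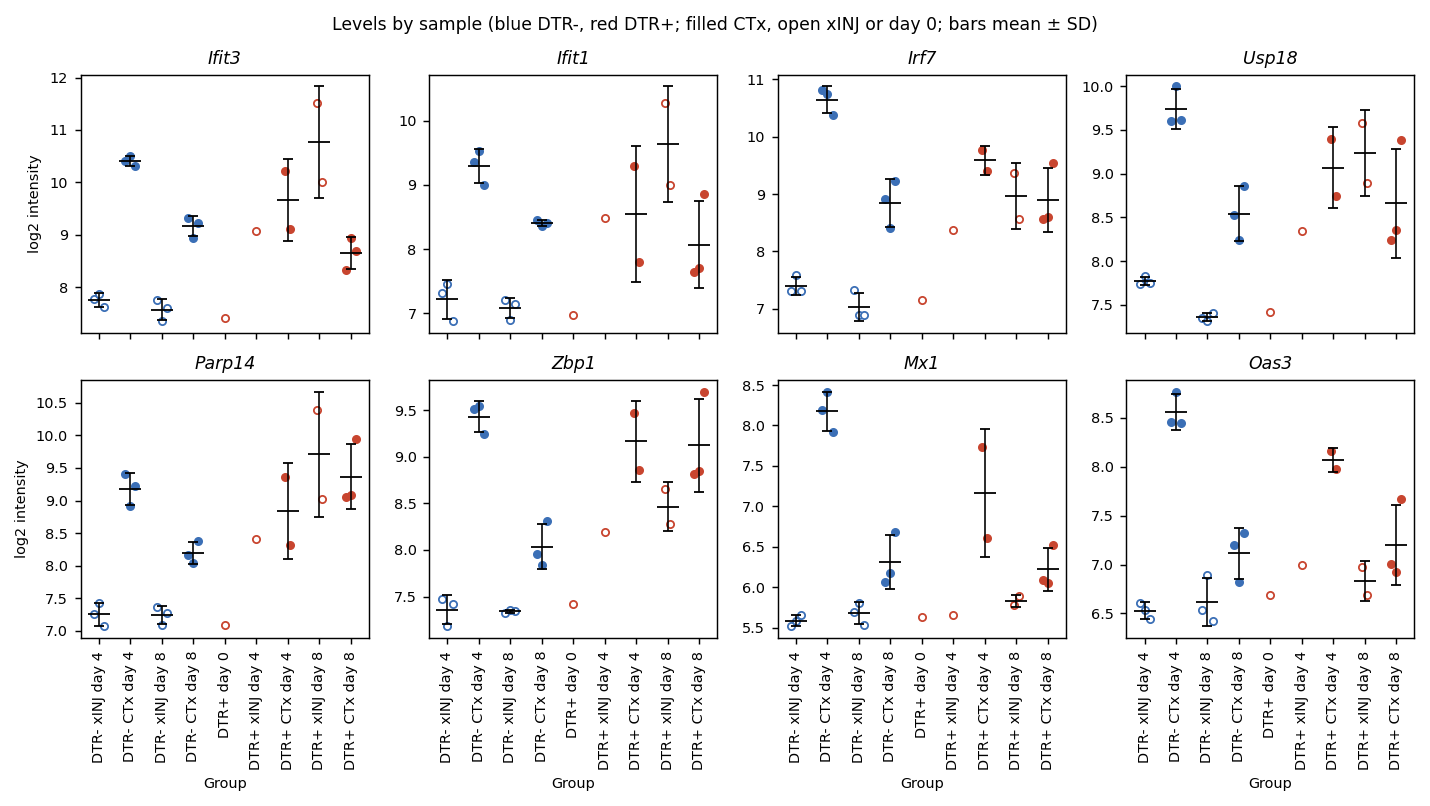
Log2 intensity of Ifit3, Ifit1, Irf7, Usp18, Parp14, Zbp1, Mx1 and Oas3 in each sample by group, with mean and SD where a group has more than 1 sample. Blue is DTR- and red DTR+, filled symbols are CTx muscle and open symbols xINJ muscle or day 0. In Ifit3 and Ifit1 the higher DTR+ xINJ day 8 sample lies above every other sample, while Mx1 is below the filter level in every xINJ sample.

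The single DTR+ xINJ day 4 sample, which entered no test, was above every DTR- xINJ day 4 sample for 33 of the 36 members, as it was for 17.6% of all genes. The median difference from the DTR- mean was 0.65, and the largest was 1.31 for Ifit3. Its Ifit3 was at 9.06, its Ifit1 at 8.48 and its Irf7 at 8.38. The members of the single DTR+ day 0 sample differed from the DTR- xINJ mean by a median of -0.20 at day 4 and -0.07 at day 8, with Ifit3 at 7.40 and Irf7 at 7.15.

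Set side by side, the genotype effects on Ifit3 were -0.76 for CTx day 4, -0.51 for CTx day 8 and 3.20 for xINJ day 8. Those on Parp14 were -0.34, 1.17 and 2.46, and those on Irf7 were -1.06, 0.05 and 1.93. All 4 members called for CTx day 8, a comparison that shares no sample with the xINJ one, were among the 16 called there. Parp14, Dtx3l and Ifi35 were each called for CTx day 8 in 2 of 6 fits that left out 1 sample. How many of all genes were called in both was not counted, so the overlap is no result about these members. Both comparisons came from the same fit, which pools the variance of each gene over all groups.

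**Figure D3:**
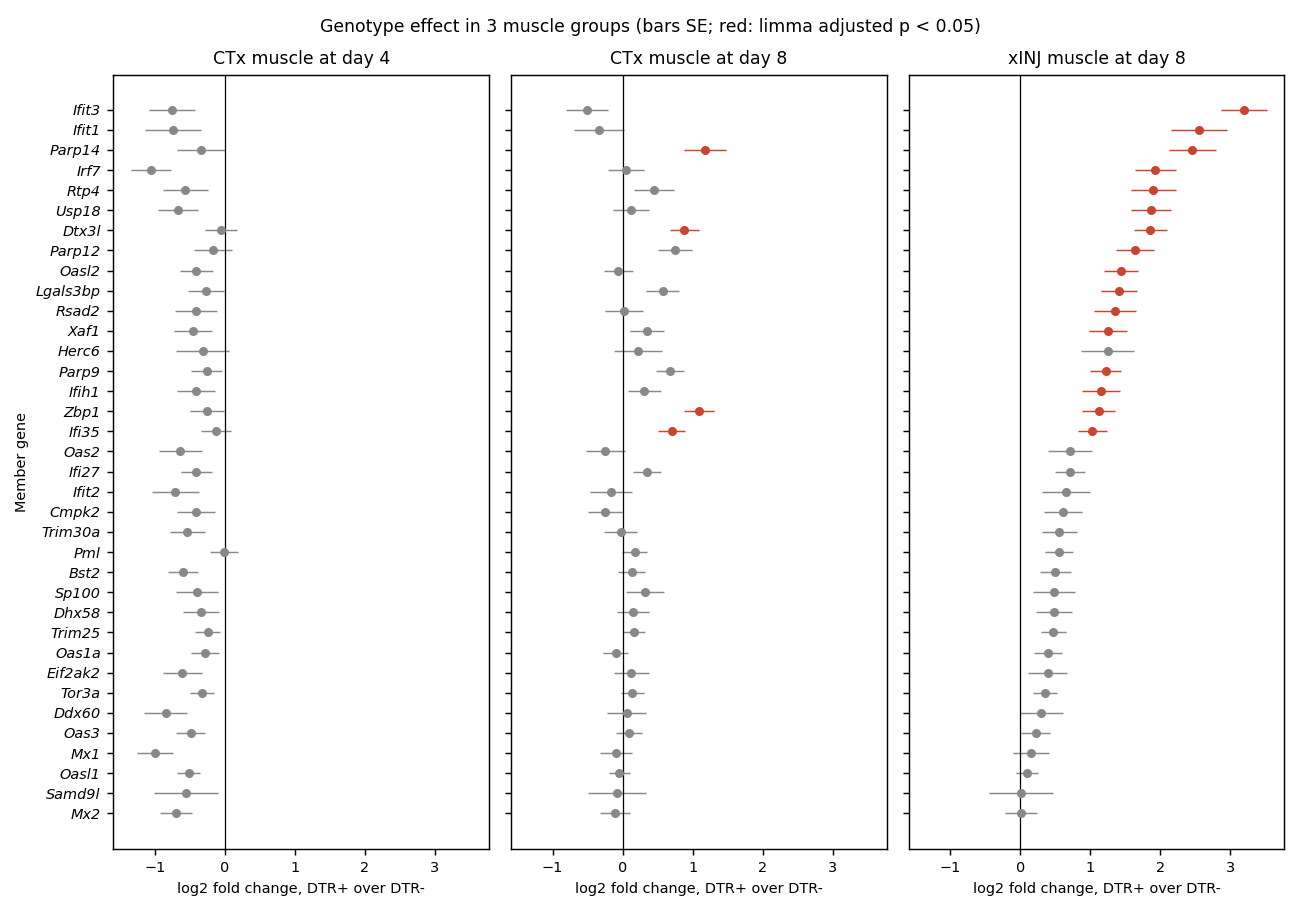
Log2 fold change of DTR+ over DTR- for each of the 36 members, with SE, in panels for CTx day 4, CTx day 8 and xINJ day 8. Genes are in the order of their xINJ values, and red marks a limma adjusted p under 0.05. The day 4 panel has 0 red genes, the CTx day 8 panel 4 and the xINJ day 8 panel 16.

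Whether genotype acted differently on CTx and xINJ muscle was itself tested at day 8, as the CTx effect minus the xINJ effect. This difference was called for 2 members, Ifit3 at -3.71 ± 0.44 (SE, limma adjusted p = 0.000646) and Ifit1 at -2.90 ± 0.53 (SE, limma adjusted p = 0.026). Over all genes 0.128% were called lower and 0.105% higher, or 0.211% and 0.0828% with arrays centred, where 5 members were called. All 36 estimates were negative, with a median of -0.57. Irf7 at -1.88 (limma adjusted p = 0.0566), Usp18 at -1.75 (0.073) and Oasl2 at -1.49 (0.0646) missed the threshold. Rsad2 was at -1.34, Oas2 at -0.97 and Zbp1 at -0.04. Ifit3 was called in all 11 fits that left out 1 sample, with values of -4.47 to -2.96, and Ifit1 in 2 of the 11. With DTR+ CTx day 8 replicate 3 left out 6 members were called, and with DTR+ xINJ day 8 replicate 2 left out 3. The count was 1, Ifit3, without DTR+ CTx day 8 replicate 1 or 2, DTR+ xINJ day 8 replicate 1, DTR- CTx day 8 replicate 1 or 3, or any one of the DTR- xINJ day 8 samples.

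The change of the genotype effect in CTx muscle from day 4 to day 8 was called for 0 members by limma. Over all genes 0.557% were called higher and 0.0301% lower. Of the 36 members 15 had an unadjusted p under 0.05, as had 1381 of all 13278 genes. All 36 estimates were positive, with a median of 0.66. Parp14 was at 1.51 ± 0.45 (SE), Zbp1 at 1.35 ± 0.32 (limma adjusted p = 0.0628) and Irf7 at 1.11 ± 0.39. Ifit1 was at 0.40, Ifit3 at 0.24, Oas2 at 0.38, Usp18 at 0.78, Rsad2 at 0.44 and Parp9 at 0.93. Without DTR+ CTx day 4 replicate 2 the count was 5, and it was 1 without DTR+ CTx day 8 replicate 1 or DTR- CTx day 4 replicate 3.

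Within DTR+ mice few members were called between CTx and xINJ muscle at day 8, and Ifit3 and Ifit1 were lower in CTx. Of the 36, 3 were called higher and 2 lower, against 16.7% and 8.51% of all genes, and the median was 0.25. Ifit3 fell by 2.12 ± 0.33 (SE, limma adjusted p = 0.000102) and Ifit1 by 1.57 ± 0.40 (limma adjusted p = 0.00661). All DTR+ CTx samples lay below both DTR+ xINJ samples for these genes. Tor3a rose by 0.58 and Oasl1 by 0.52. Dhx58, below the filter level on both DTR+ xINJ arrays and on 1 of 3 CTx arrays, was called at least 1.36-fold higher. Irf7 was at -0.06, Usp18 at -0.57, Oas2 at 0.47 and Rsad2 at -0.60, none called.

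The 3 members called higher rested on the scaling. With each array centred on its median, which shifted the median of all genes by -0.17 in this comparison, 0 members were called higher and 2 lower, with 11.9% and 15.5% of all genes. Quantile normalization called 2 higher and 2 lower, with 15.0% and 13.4% of all genes. Without DTR+ xINJ day 8 replicate 1 the called members were Oasl1 at 0.65 and Ifit3 at -1.37 (limma adjusted p = 0.00669), and Ifit1 was at -0.93 (0.202). Without replicate 2 the called members numbered 0 higher and 3 lower, and without DTR+ CTx day 8 replicate 3 they numbered 0 and 4. Macrophage markers were called higher for 11 of 11 in the same comparison, with a median of 2.27. T cell markers were called higher for 7 of 7, with a median of 1.28, and the part of either was not tested.

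In CTx muscle of DTR+ mice 9 members were called lower and 0 higher at day 8 than at day 4, against 8.24% and 2.84% of all genes. With quantile normalization 9 were lower and 1 higher, against 7.52% and 4.88%. The median was -0.50. They were Dhx58 at -1.24 ± 0.26 (SE, limma adjusted p = 0.00405), Oasl2 at -1.09, Trim30a at -0.95, Mx1, at least 1.32-fold lower, Oas3 at -0.87, Lgals3bp at -0.84, Tor3a at -0.66, Pml at -0.65 and Trim25 at -0.61. For Mx1, 1 of the 2 DTR+ CTx day 4 arrays was itself below the filter level, so its bound rests in part on background. All 9 were among the 33 of 36 that fell in DTR- mice, a comparison with no sample in common but from the same fit. With so many called there, this overlap was nearly fixed in advance. Ifit3 was at -1.01, Oas2 at -0.98, Irf7 at -0.69, Rsad2 at -0.54, Ifit1 at -0.48 and Usp18 at -0.41, none called. Zbp1 was at -0.04, with 9.47 and 8.86 at day 4 and 8.82, 8.85 and 9.70 at day 8.

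That count turned on single samples. It was 0 without DTR+ CTx day 4 replicate 2, 2 without DTR+ CTx day 8 replicate 1, 3 without DTR+ CTx day 8 replicate 2 and 15 without DTR+ CTx day 8 replicate 3. A fit of the compared groups alone called 2. Over the same days 7 of 11 macrophage markers were called lower and 4 of 7 T cell markers higher, and their part was not tested.

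The CTx effect at day 4 and the xINJ genotype effect at day 8, which share no sample, were set against each other. Across the 36 genes, which are not independent and share arrays within each effect, Pearson's r was 0.29 and Spearman's rho 0.29. Ifit2 and Oas2, with day 4 changes of 2.64 and 2.42, had genotype changes of 0.65 and 0.71, neither called. For Ifit2, 2 of 3 DTR- xINJ arrays were below the filter level at either day. Dtx3l, with a day 4 change of 1.26, had a genotype change of 1.86.

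**Figure D4:**
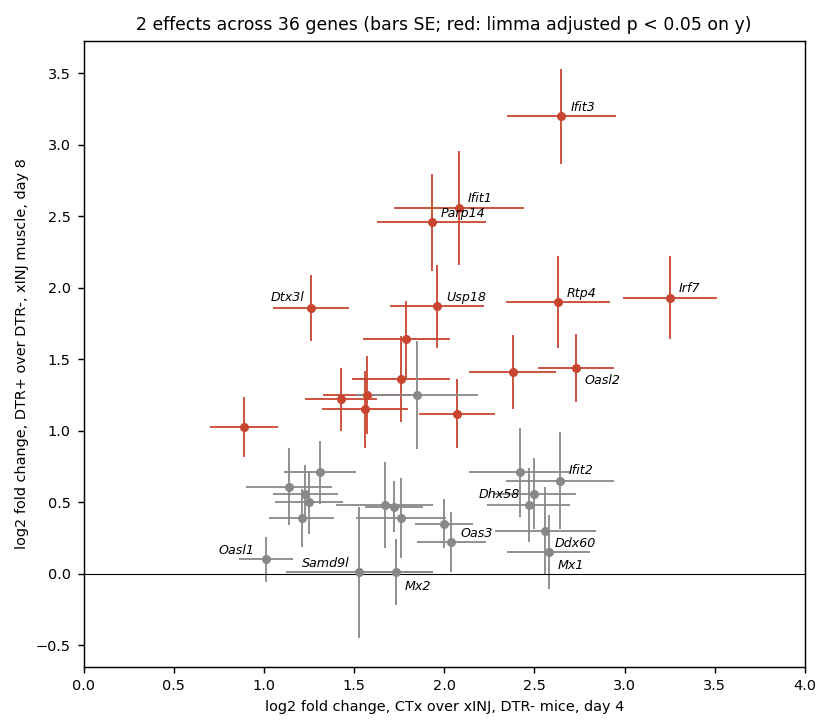
Log2 fold change of CTx over xINJ muscle in DTR- mice at day 4 (x axis) against that of DTR+ over DTR- in xINJ muscle at day 8 (y axis) for the 36 members, with SE bars. Red marks a limma adjusted p under 0.05 on the y axis. All points are at 0.89 or above on the x axis, and Ifit3 has the highest y value at 3.20. Points of Mx1, Mx2, Dhx58 and Ddx60 are fitted values with groups below the filter level on both axes.

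No gene of a type I interferon itself was called. Of 18 listed 14 were in the table and 4 tested, and limma called 0 in any comparison. In day 8 against day 4 of DTR+ CTx muscle 1 had an unadjusted p under 0.05, as had 3305 of all 13278 genes. Ifna5, between 7.14 and 8.12, and Ifnz, between 6.89 and 7.83, were above the filter level on all 21 arrays. Ifnb1, interferon beta, lay between 5.02 and 5.70 on all 21 arrays, below the filter level on each. Ifng, interferon gamma, was below it on 18 of 21 arrays and entered the test only through the 3 DTR+ CTx day 8 samples, at 6.96 to 7.08, so its call there was fixed by the filter.

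Of 10 genes tested for the receptor and its signal, 7 were called higher and 1 lower in CTx muscle of DTR- mice at day 4. Over all genes 26.1% were called higher there and 20.5% lower. Ifnar2 rose by 2.14, Stat2 by 1.89, Ifnar1 by 1.23 and Irf9 by 1.10. In DTR+ xINJ muscle at day 8, 2 of the 10 were called higher, against 1.81% of all genes. They were Irf9 at 1.64 ± 0.23 (SE, limma adjusted p = 0.000364) and Stat2 at 1.57 ± 0.25 (limma adjusted p = 0.00155). Both belong to the complex described above, whose part in the members' values was not tested. Ifnar1 and Ifnar2 were at 0.12 and 0.31, not called. In CTx muscle at day 8 the genotype called 1 of the 10, the feedback inhibitor Socs1 at 0.94, against 3.03% of all genes called higher.

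Genes that sense nucleic acids upstream of interferon, 19 tested, were called higher for 17 and lower for 1 in CTx muscle of DTR- mice at day 4. The shares of all genes were 26.1% and 20.5%. Unc93b1, which escorts endosomal receptors, rose by 2.96. Tlr7, a receptor of single-stranded RNA, and Tlr8 were below the filter level on all 3 xINJ arrays and had means of 9.26 ± 0.34 and 9.05 ± 0.31 (SD, n = 3) in CTx muscle. For genotype in CTx muscle at day 8, 5 of the 19 were called higher, against 3.03% of all genes. Among them were Samhd1, which depletes nucleotides, at 1.14 and Unc93b1 at 0.85. In DTR+ xINJ muscle at day 8, 2 were called higher, against 1.81% of all genes, Samhd1 at 2.24 and the RNA-editing enzyme Adar at 0.88.

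Interferon gamma and its preferred targets, 19 tested, were called higher for 15 and lower for 1 in CTx muscle of DTR- mice at day 4. Their median was 1.04, and the shares of all genes were 26.1% and 20.5%. From day 4 to day 8 in DTR+ CTx muscle 8 were called higher and 1 lower, against 2.84% and 8.24% of all genes. Ifng passed the filter only through the day 8 samples of that comparison. The list was also called with genotype. Of 19 tested, 17 were called higher in DTR+ CTx muscle at day 8, against 3.03% of all genes, with a median of 1.51. That count includes Ifng, whose call in this comparison was fixed by the filter. In DTR+ xINJ muscle 14 were called, against 1.81%, with a median of 1.70. In xINJ muscle Iigp1, an immunity-related GTPase, rose by 4.64 ± 0.43 (SE, limma adjusted p = 2.92e-06) and Irgm1 by 3.92. Cxcl9 and Cxcl10, chemokines for T cells, rose by 2.32 and 1.84 there and by 2.24 and 1.48 in CTx muscle. The 36 members had medians of 0.12 in CTx and 0.71 in xINJ muscle. Neither list was tested against the other, and many genes answer both interferons.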

How the data were processed

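Biotin-labelled total RNA of each muscle was hybridised to 1 array (Affymetrix Mouse Gene 1.0 ST). Per the submitters' processing notes, the authors ran RMA within Affymetrix Power Tools, versions not given, and deposited linear intensities for probe sets, of which log2 was taken here. Of 24922 probe sets, 22824 were in the array's annotation, 1399 with several symbols and 21425 with 1. The latter were used, with the highest mean for the 921 genes with more than 1. Gene identifiers of 21347 were in the RefSeq table, and 0 symbols changed. No 2 samples held identical values.

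Genes above the 40th percentile of their array on at least 2 arrays were tested, 13278 in all. The fit (limma 3.58.1, R 4.3.3) had 9 group means, 12 residual and 6.56 prior degrees of freedom, and eBayes defaults; tests were two-sided. An exact permutation test of 3 against 3 samples cannot go below 0.1. Promoters came from RefSeq, GRCm38.p6.

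Members, lists and tests were chosen with earlier results of these data known. Members are described by role. For each comparison values are given for up to 6 called members with the largest changes each way, the 3 with the smallest p where fewer than 3 were called, and Ifit1, Ifit3, Oas2, Irf7, Usp18, Mx1 and Rsad2. Pathway lists are given by up to 3 genes of smallest p each and by chosen receptors, ligands and chemokines. Alternatives covered the filter, the probe set rule, scaling, the variance model, the samples in the fit, the doubtful sample, a replicate block and leaving out each sample.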

Additional observations from a re-analysis of the deposited data

Results flagged for a closer look

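At day 8 the effect of genotype on Ifit3 differed between CTx and xINJ muscle, by -3.71 on the log2 scale, and that on Ifit1 by -2.90. Both differences passed limma's test of the difference itself (adjusted p = 0.000646 and 0.026). DTR+ muscle was higher than DTR- muscle in xINJ samples and not in CTx samples. Without DTR+ xINJ day 8 replicate 1 they were -2.96 (adjusted p = 0.00255) and -2.26 (0.272).

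The single DTR+ xINJ day 4 sample, which entered no comparison, was above every DTR- xINJ day 4 sample for 33 of 36 members. With 1 sample there is no test.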

How the results depend on the processing

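No alternative reversed a called value. Apart from fits that leave out a sample, the 11 counts of called members stayed within 1.5 times the reported count, except as follows. Quantile normalization called 1 member, Zbp1, for the change of the genotype effect from day 4 to day 8. Centring each array on its median called 5 for the difference between CTx and xINJ muscle and 2 for CTx against xINJ muscle in DTR+ mice. Fitting only the groups compared called 3 in the latter and 2 for day 8 against day 4 in DTR+ CTx muscle. A replicate block called 4 for the difference between CTx and xINJ muscle and changed no other count by over 1.5 times; within genotype and day it called 36 and 31 higher for CTx against xINJ muscle of DTR- mice and, in DTR+ mice, 1 higher and 4 lower where 3 and 2 were reported. Same-numbered CTx and xINJ samples correlated between -0.2085 and 0.4681, and 10 of 16 samples correlated best with their own number. Not every pair passed 0.1, so the numbers were not used as pairs, which does not show that samples were unpaired.

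Leaving out each sample in turn gave 36 to 36 called members at day 4 and 14 to 20 at day 8 for CTx against xINJ in DTR- mice, and 2 to 6 in DTR+ mice. It gave 0 to 1, 1 to 5 and 4 to 15 for genotype in CTx muscle at day 4, at day 8 and in xINJ muscle. The differences of the genotype effect gave 0 to 5 between days and 1 to 6 between muscles. Day 8 against day 4 gave 26 to 32 in DTR- CTx, 0 to 15 in DTR+ CTx and 0 to 0 in xINJ muscle. The cause of these changes was not tested.

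Leaving out both DTR- day 4 replicates numbered 1, chosen after seeing the data, called 36 members at day 4. Centring moved the median of all genes by -0.12, -0.10 and -0.17 in CTx against xINJ muscle of DTR- mice at day 4, at day 8 and of DTR+ mice. Signal near the filter level limits Mx1, Mx2, Dhx58, Ddx60, Eif2ak2, Oas3 and Ifit2 in xINJ muscle. It limits Mx1 and Mx2 also in CTx muscle at day 8 and in DTR+ CTx muscle at day 4.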
